A study of Homo sapiens with 12 samples.

Results

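Vimentin and 8 transcription factors of the epithelial-mesenchymal transition were followed through prostate cancer cells and their docetaxel-resistant derivatives: SNAI1, SNAI2, TWIST1, ZEB1, ZEB2, TCF3, TCF4, PRRX1 and VIM. All probe sets that the array annotation gave to these 9 gene symbols alone were taken. These 9 of 11939 named genes had 29 of 22215 probe sets in a table of 8 arrays and 39 of 54613 in a table of 4 larger arrays, of which 10 were on the larger type only. TCF3 is the gene of the E2A proteins and TCF4 that of E2-2, and neither is a beta-catenin partner of the TCF/LEF family. SNAI2, ZEB1, VIM, TWIST1, TCF3 and TCF4 gave clear signals in at least 1 line, while ZEB2 and PRRX1 stayed near the bottom of the range on most arrays.

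The cells were the human prostate carcinoma lines DU145 and 22Rv1, grown in RPMI with serum and without drug, and the lines DU145-DR and 22Rv1-DR, selected for resistance to docetaxel and grown in the same medium under docetaxel. Docetaxel binds microtubules and blocks their disassembly. Each resistant line therefore differed from its parent both in its selection and in its exposure at harvest, and the 2 cannot be told apart. The labels do not say whether a resistant line is 1 clone or a pool, or whether replicates came from separate cultures. The p-values below measure the spread between these arrays, which may be technical. Each group had 3 arrays, replicates 1 and 2 on the smaller and replicate 3 on the larger type. RNA came from whole cultures, so fewer cells of a kind and less RNA per cell cannot be told apart.

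In the epithelial-mesenchymal transition, epithelial cells lose the junctions that hold them together and gain a motile form. SNAI1, SNAI2, ZEB1 and ZEB2 are zinc-finger repressors that bind E-box sequences in the promoters of epithelial genes such as CDH1, the gene of E-cadherin. TWIST1 is a basic helix-loop-helix factor that pairs with the broadly expressed E proteins TCF3 and TCF4, PRRX1 is a homeobox factor, and vimentin is the intermediate filament protein of mesenchymal cells.

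The E-box bound by the zinc-finger members reads CAGGTG, or CACCTG on the other strand, and it was looked for on both strands in the windows of 250 bases before to 50 after each annotated start (RefSeq, GRCh38.p14). Windows were at hand for 6 of the 9 genes, 21 in all; SNAI1, SNAI2 and TWIST1 had none. A match stood in 2 of the 21, both of ZEB1, against 20.6% of all 35116 windows of this length. The sequences of ZEB1 and of 2 further members with values of their own in the resistant DU145 cells are shown with each match in capitals, to let the ZEB1 windows be read against windows without one.
ZEB1, chr10:31318966-31319265, plus strand, 3 matches: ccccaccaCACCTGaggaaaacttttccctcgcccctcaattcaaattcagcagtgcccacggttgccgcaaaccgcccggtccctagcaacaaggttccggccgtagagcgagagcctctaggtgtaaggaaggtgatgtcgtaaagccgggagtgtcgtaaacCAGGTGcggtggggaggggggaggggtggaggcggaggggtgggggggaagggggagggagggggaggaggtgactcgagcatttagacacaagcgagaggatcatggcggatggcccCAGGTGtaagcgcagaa
ZEB1, chr10:31318167-31318466, plus strand, 1 match: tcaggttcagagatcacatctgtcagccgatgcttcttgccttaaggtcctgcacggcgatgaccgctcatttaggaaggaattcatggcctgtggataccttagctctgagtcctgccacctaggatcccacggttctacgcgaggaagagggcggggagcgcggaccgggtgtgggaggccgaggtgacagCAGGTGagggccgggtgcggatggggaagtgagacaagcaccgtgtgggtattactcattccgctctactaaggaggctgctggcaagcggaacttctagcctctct
ZEB2, chr2:144520070-144520369, minus strand, 0 matches: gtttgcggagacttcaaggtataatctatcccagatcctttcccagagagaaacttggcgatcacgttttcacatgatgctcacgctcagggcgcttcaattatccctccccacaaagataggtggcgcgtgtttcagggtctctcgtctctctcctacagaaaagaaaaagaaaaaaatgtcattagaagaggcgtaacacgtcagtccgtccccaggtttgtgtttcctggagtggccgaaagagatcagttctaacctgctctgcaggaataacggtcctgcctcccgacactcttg
VIM, chr10:17227991-17228290, plus strand, 0 matches: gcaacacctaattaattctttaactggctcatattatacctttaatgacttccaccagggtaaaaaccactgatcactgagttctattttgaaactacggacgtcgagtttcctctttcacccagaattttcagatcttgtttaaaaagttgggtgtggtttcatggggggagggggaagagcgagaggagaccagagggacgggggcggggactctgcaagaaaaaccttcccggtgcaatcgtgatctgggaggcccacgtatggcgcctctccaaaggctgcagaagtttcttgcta
Only 0.635% of all windows held 3 or more matches, as the first ZEB1 window does. The other 5 ZEB1 windows held none. A match is a string of letters in the reference and not a measured binding site.

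Values were intensities, taken as log2 of the intensity plus 16 for differences. In the 8-array table the lowest signals lay higher on the DU145 arrays, with a 5th percentile of 35.8 to 38.6, than on those of 22Rv1 cells, with 11.5 to 12.3, so levels there do not compare between the lines. In the 4-array table all arrays had nearly 1 floor (10.9 to 11). Differences between resistant and parental cells were tested with limma over the 8 arrays, with Benjamini-Hochberg adjustment over 14323 probe sets whose mean passed an intensity of 80.4 in at least 1 group; 25 of the 29 member probe sets, of 7 genes, did. ZEB2, PRRX1, 1 of 13 TCF3 and 1 of 7 TCF4 probe sets did not. A probe set counts as changed at an adjusted p under 0.05. Replicate 3 gave 1 difference per line with no test.

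**Figure D1:**
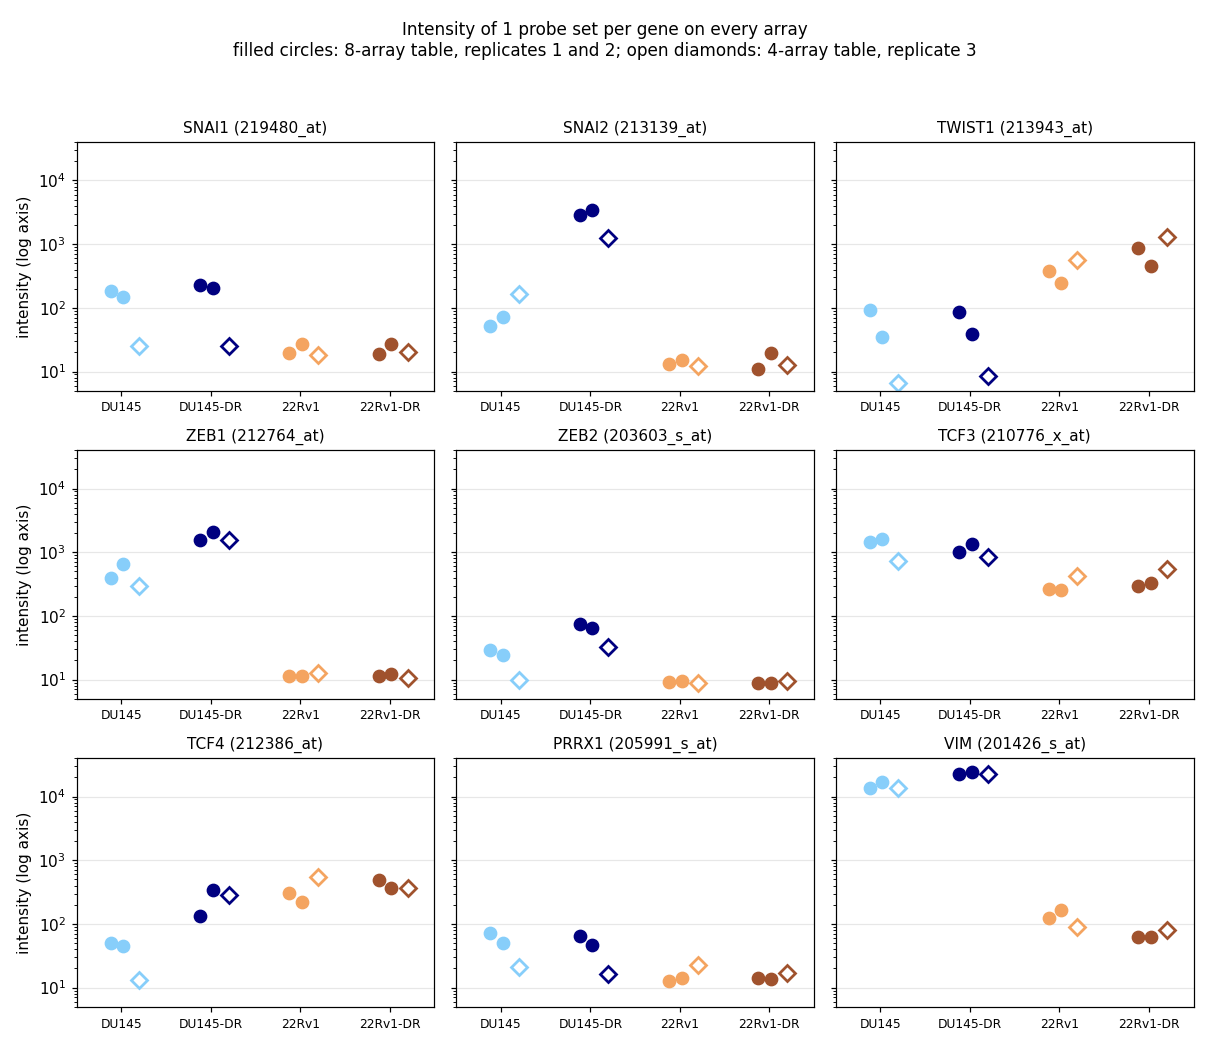
Intensity (log axis) of 1 probe set for each of the 9 genes on every array, by group; filled circles are replicates 1 and 2 of the 8-array table and open diamonds replicate 3 of the 4-array table. SNAI2 at 213139_at and ZEB1 at 212764_at stand higher in DU145-DR than in DU145 within each array type and near the floor in both 22Rv1 groups, while TWIST1 is highest in the 22Rv1 groups. Each gene is shown at whichever of its probe sets has the widest range of group means, tested or not.

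Of the Snail family, SNAI2 rose in DU145-DR and SNAI1 did not pass. SNAI2, which encodes Slug, read 52.7 and 71.5 in DU145 and 2876 and 3421 in DU145-DR. On the larger array the pair read 167 and 1261. In 22Rv1 it read 13.2 and 15.1, in 22Rv1-DR 10.9 and 19.3, and 12.2 and 12.8 on the larger array. Both resistant DU145 arrays of the smaller type, and the resistant one of the larger type, thus lay far above their parents, and the 22Rv1 values lay at the floor with overlapping groups. The log2 difference in DU145-DR was 5.35 ± 0.22 (limma standard error, 2 arrays a group, adjusted p = 1.37e-05), and 2.81 in the third pair. It passed in all 19 alternatives, with adjusted p from 5.05e-08 to 0.00173. The tested difference starts from parental arrays at the 13.7 and 29.1 percentile of all probe sets, so its size is bound to the floor; the parent of the third pair stood at the 73.9 percentile of its array. In 22Rv1-DR the difference was 0.03 ± 0.22 (limma, adjusted p = 1).

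SNAI1, which encodes Snail, read 181 and 149 in DU145 against 226 and 208 in DU145-DR. In the 22Rv1 groups it lay between 18.9 and 27.5, and on all 4 larger arrays between 18.3 and 25.6. The resistant DU145 arrays were both above the parental ones, by 0.37 ± 0.21 on the log2 scale, which did not pass (limma, adjusted p = 0.372), and the third pair differed by -0.01. With a term for the shared replicate number of each line, which the text calls the replicate block, the limma adjusted p was 0.0306; over all alternatives it ranged from 0.0306 to 1. The related SNAI3, on the larger array only, read 15.6, 12.9, 13.7 and 11.6 in DU145, DU145-DR, 22Rv1 and 22Rv1-DR.

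ZEB1 rose in resistant DU145 cells at 2 of its 3 tested probe sets and differed little in 22Rv1-DR. ZEB1 probe set 212764_at read 393 and 662 in DU145, 1552 and 2077 in DU145-DR, and between 11.3 and 12 on the 4 22Rv1 arrays. The larger arrays gave 290 and 1552 in the DU145 pair, and 12.7 and 10.6 in the 22Rv1 pair. Every DU145-DR array was above every DU145 array, and the 22Rv1 arrays lay at the bottom of their range. The difference in DU145-DR was 1.78 ± 0.27 (limma, adjusted p = 0.0056; the third pair gave 2.36).

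A further ZEB1 probe set, 210875_s_at, read 56.5 and 53.4 in DU145 and 132 and 110 in DU145-DR. It rose by 0.94 ± 0.18 (limma, adjusted p = 0.0156), with 0.82 in the third pair. The tested parental values stood at the 16 and 19.3 percentile of their arrays, so the size of this rise depends on the floor. At the remaining one of the smaller array, 212758_s_at, the arrays read 644 and 512 in DU145, 1596 and 1075 in DU145-DR, 17.1 and 48.2 in 22Rv1, and 18.1 and 40.8 in 22Rv1-DR. The larger arrays gave 133 and 413 in the DU145 pair and 39.1 and 38.6 in the 22Rv1 pair. The 22Rv1 values of this probe set overlapped and, unlike those of 212764_at, reached the 50.7 percentile of the larger array. Its difference of 1.17 ± 0.37 did not pass (limma, adjusted p = 0.0945; 0.00221 with the replicate block; range over alternatives 0.00221 to 0.318), and the third pair gave 1.53. All 3 probe sets read the same transcripts and are not independent. All 3 were higher in each of the 3 DU145 pairs, and in 22Rv1-DR their differences lay between -0.07 and 0.02. The call at 210875_s_at was lost without DU145 replicate 1 (limma, adjusted p = 0.0628) or replicate 2 (0.0705) with only the 4 arrays compared (0.129) and with 12 arrays (0.223), in a range of 0.00238 to 0.223 over the alternatives. That at 212764_at was lost with only the 4 arrays compared (0.0581, range 0.000768 to 0.0581). A probe set of ZEB1 on the larger array only read 13.4 and 23.6 in the DU145 pair.

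ZEB2, the close relative of ZEB1, was dim. Probe set 203603_s_at read 28.6 and 24.1 in DU145, 75.1 and 63.6 in DU145-DR, and 8.94 to 9.65 on the 22Rv1 arrays. The third pairs read 9.71 and 32.7 in DU145 cells and 9 and 9.38 in 22Rv1 cells. DU145-DR was above DU145 in every pair, by 1.01 over the first pairs and 0.92 in the third. The DU145 values lay at the very bottom of their arrays, at the 0.367, 0.009 and 1.66 percentile, so the size of these differences is set by the floor. This probe set missed the filter; in the limma fit with no filter its adjusted p was 0.0102. The 4 ZEB2 probe sets that are on the larger array only lay between 9.32 and 15.5 in all groups.

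TWIST1 had its highest signals in 22Rv1 cells. It read 375 and 249 in 22Rv1 and 867 and 458 in 22Rv1-DR, against 91.8 and 34.8 in DU145 and 86.8 and 38.9 in DU145-DR. On the larger arrays the order was DU145 with 6.73, DU145-DR with 8.4, 22Rv1 with 568 and 22Rv1-DR with 1296. Each resistant 22Rv1 array was above each parental array of its type, and the DU145 groups overlapped, with DU145 at the very bottom of the larger array. The difference of 1.01 ± 0.46 in 22Rv1-DR did not pass (limma, adjusted p = 0.368; the third pair gave 1.17). Within pairs it was 1.18, 0.84 and 1.17, and with the replicate block the adjusted p was 0.00535 (limma; range over alternatives 0.00535 to 0.967). TWIST2, its close relative on the larger array only, read 284 and 276 in the DU145 pair and 25.1 and 21.6 in the 22Rv1 pair at probe set 229404_at, and no more than 36.5 at its other probe set.

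Among the E proteins, which dimerise with TWIST1, TCF4 rose in DU145-DR at 1 of its 6 tested probe sets. Probe set 212386_at read 50.9 and 44.6 in DU145, 134 and 335 in DU145-DR, 307 and 218 in 22Rv1, and 488 and 372 in 22Rv1-DR. On the larger arrays DU145 was lowest with 13.2, followed by DU145-DR with 284, 22Rv1-DR with 367 and 22Rv1 with 541. The resistant DU145 arrays lay above the parental ones without overlap, but DU145-DR replicates 1 and 2 differed from each other more than the parental arrays did. The rise was 1.85 ± 0.38 (limma, adjusted p = 0.0189; the third pair gave 3.36). It was lost without DU145 replicate 1 (limma, adjusted p = 0.0907) or replicate 2 (0.107) and with only the 4 arrays compared (0.0891). The mean over the gene's probe sets differed by 0.775 and did not pass (0.102). Over all alternatives the adjusted p ranged from 0.000973 to 0.107. The parental values stood at the 12.7, 12.6 and 12 percentile of their arrays, so the size of these differences depends on the floor.

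The other 5 tested TCF4 probe sets differed by 0.33 to 1.10 in DU145-DR and did not pass; with the replicate block 203753_at, 212387_at, 213891_s_at and 222146_s_at did (limma, adjusted p = 0.0241, 0.0229, 0.0435 and 0.0157; ranges over alternatives reached 0.403, 0.89, 0.307 and 0.634). At 203753_at the arrays read 62.7 and 43.4 in DU145 and 100 and 169 in DU145-DR, and 21.3 and 163 in the third pair. All 7 TCF4 probe sets of the smaller array, the untested one included, were higher in each of the 3 DU145 pairs. Over all tested probe sets 28.9% were. The 7 read 1 gene on the same arrays and are not independent, here and in the counts below. The eighth, on the larger array only, read 15.5 and 15.1.

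In 22Rv1-DR the TCF4 pairs did not all point 1 way. All 7 probe sets were higher in pairs 1 and 2, as were 40.1% of all tested probe sets, and 6 of the 7 were lower in pair 3. At 213891_s_at, 22Rv1 read 271 and 260 and 22Rv1-DR 505 and 440, whereas the larger arrays read 452 and 355. The largest tested difference, 0.94 ± 0.25 at 222146_s_at, did not pass (limma, adjusted p = 0.0855; the third pair gave 0.16). With the replicate block it passed, as did 212387_at and 212382_at (limma, adjusted p = 0.00305, 0.00845 and 0.0171; each ranged up to 1 over the alternatives). Over all probe sets higher in both first pairs, 67.2% were higher in the third.

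**Figure D2:**
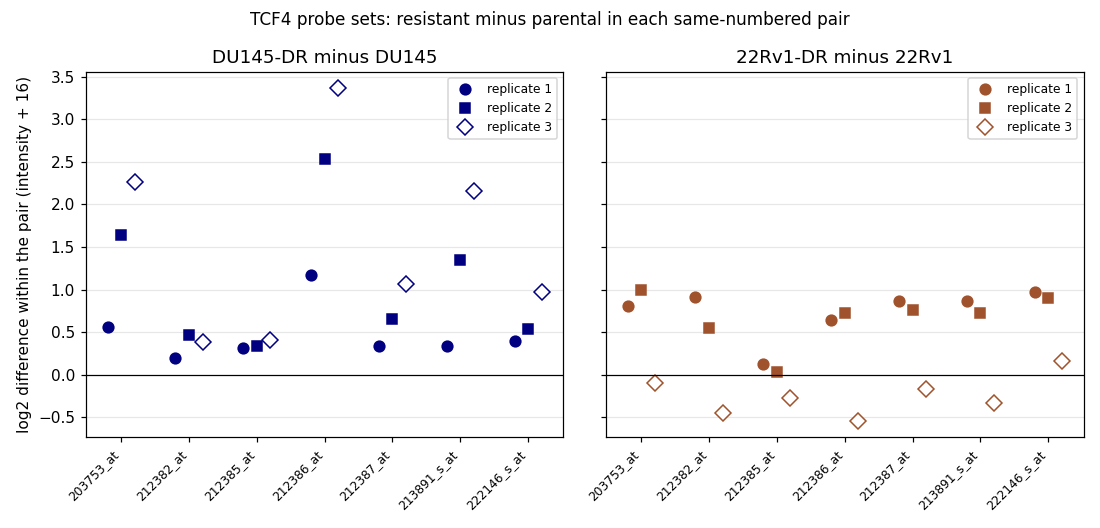
Log2 difference (intensity plus 16), resistant minus parental, within each same-numbered pair for the 7 TCF4 probe sets on both array types; filled circles, filled squares and open diamonds are replicates 1, 2 and 3. All points lie above 0 in DU145 cells, and in 22Rv1 cells 6 of 7 diamonds lie below 0.

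TCF3 had 13 probe sets on the smaller array and none of the 12 tested changed in either line. At the brightest, 209153_s_at, DU145 read 3350 and 3929, DU145-DR 2091 and 3083, 22Rv1 771 and 755, and 22Rv1-DR 714 and 680. The larger arrays read 1323 and 949 in the DU145 pair and 942 and 776 in the 22Rv1 pair. The resistant arrays were the lower ones in each pair, by 0.51 ± 0.23 in DU145-DR (limma, adjusted p = 0.223; the third pair gave -0.47) and 0.13 ± 0.23 in 22Rv1-DR (limma, adjusted p = 1). With the replicate block the DU145-DR difference passed (limma, adjusted p = 0.021; range over alternatives 0.021 to 0.786). The probe sets disagreed in the third DU145 pair, where 8 were higher and 5 lower, from -0.47 to 0.75. The related E protein TCF12 read 1278 and 1710 in DU145 and 1418 and 1924 in DU145-DR and did not pass in either line.

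PRRX1 missed the filter at its probe set on both arrays, which read 72.5 and 49.5 in DU145, 64.4 and 46.2 in DU145-DR, and 12.8 to 14.4 in the 22Rv1 groups. On the larger array, 226695_at read 45.2 in 22Rv1 and 14.4 in 22Rv1-DR, a difference of -1.01, and 15.2 and 12.2 in the DU145 pair. Each of these values is 1 array. The related PRRX2 read 345 and 357 in DU145, 440 and 568 in DU145-DR, 79.9 and 73.5 in 22Rv1, and 99.7 and 97.7 in 22Rv1-DR. Its differences of 0.49 and 0.31 did not pass (limma, adjusted p = 0.172 and 0.598). The first passed with the replicate block (0.0228; range over alternatives 0.0228 to 0.616).

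Vimentin was higher in resistant DU145 cells, without passing, and fell in resistant 22Rv1 cells. VIM probe set 201426_s_at read 13400 and 16962 in DU145, 22694 and 24492 in DU145-DR, 123 and 165 in 22Rv1, and 63.1 and 61.4 in 22Rv1-DR. The larger arrays read 13400 and 22227 in the DU145 pair and 88.6 and 81.6 in the 22Rv1 pair. DU145-DR was above DU145 and 22Rv1-DR below 22Rv1 in every pair, and no groups overlapped within a line on the smaller array. The difference of 0.64 ± 0.21 in DU145-DR did not pass (limma, adjusted p = 0.106; the third pair gave 0.73); it passed with the replicate block (0.0183) and after quantile normalization (0.0487), and the adjusted p ranged up to 0.454 over the alternatives. These DU145 values stand at the 99.2 percentile of the array or above.

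In 22Rv1-DR, VIM fell by 1.02 ± 0.21 on the log2 scale (limma, adjusted p = 0.0335), and the third pair differed by only -0.10. The call was lost when any 1 of the 4 22Rv1 or 22Rv1-DR arrays was left out (limma, adjusted p = 0.103 without 22Rv1 replicate 1, 0.334 without 22Rv1 replicate 2, 0.203 without 22Rv1-DR replicate 1 and 0.218 without 22Rv1-DR replicate 2). It was lost also with a pseudocount of 64 (0.0821) and with 12 arrays (0.89), in a range of 0.00744 to 0.89. Intensities of 61.4 to 165 compare with array medians of 59.3 to 69.1. A second VIM probe set, 1555938_x_at, is on the larger array only and of a class prone to cross-hybridization by its name. It read 27.9 in DU145 and 405 in DU145-DR, a difference of 3.26, against 0.73 at the main probe set on the same arrays, and 11.6 and 12.2 in the 22Rv1 pair.

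**Figure D3:**
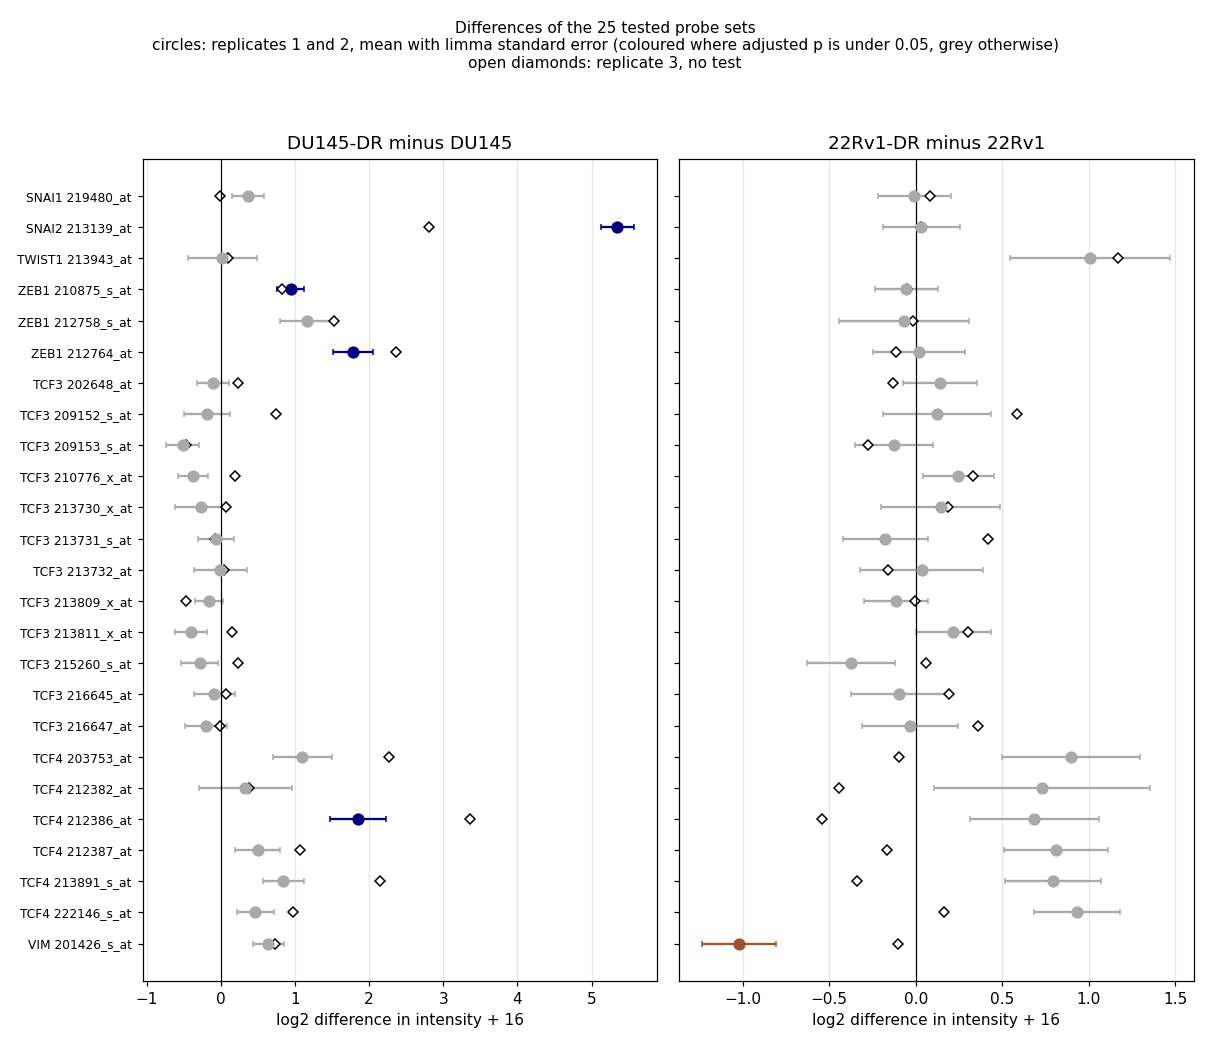
Log2 differences (intensity plus 16), resistant minus parental, of the 25 tested probe sets in both lines; circles are means of replicates 1 and 2 with the limma standard error, coloured where the adjusted p is under 0.05, and open diamonds are replicate 3. In DU145-DR SNAI2 stands at 5.35 and 2 ZEB1 and 1 TCF4 probe sets passed; in 22Rv1-DR VIM alone passed, at -1.02. The horizontal scales of the panels differ.

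Over the members, 4 of 25 probe sets, of SNAI2, ZEB1 and TCF4, rose in DU145-DR and 0 fell. Over all 14323 probe sets, 4.77% rose and 4.69% fell. The median member difference was 0.02 and that of all probe sets -0.01. At an unadjusted limma p under 0.05, 8 members were higher and 0 lower. The share of all probe sets at this looser cut is not given, here or below, so such counts are only a description. With the replicate block 11 members were higher and 1 lower, beside 18% and 16.2% of all. In the third pair, of 28 member probe sets past the filter there, 8 were higher by at least 1 on the log2 scale and 0 lower, beside 8.82% and 8.14% of 27757 (a description of single arrays). The 8 were SNAI2, 2 of ZEB1, 4 of TCF4 and the second one of VIM.

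In 22Rv1-DR 0 of the 25 rose and 1 fell, VIM, beside 2.27% and 1.94% of all probe sets; 3 were higher and 1 lower at an unadjusted limma p under 0.05. The replicate block gave 4 higher (TWIST1 and 3 of TCF4) and 1 lower, beside 11.4% and 8.75%. Of the third pair, 1 member was higher by at least 1 (TWIST1) and 1 lower (PRRX1), beside 2.46% and 3.67%. Leaving out any 1 of the 22Rv1 or 22Rv1-DR arrays leaves 1 array in a group. Calls then became fewer over all probe sets as well as among the members. VIM and 1 TCF4 probe set were called without DU145-DR replicate 1 or 2 (213891_s_at, limma adjusted p = 0.0344), with quantile normalization (222146_s_at, 0.0296) and with arrays shifted to 1 median (222146_s_at, 0.0434). With only the 4 arrays compared, VIM, 212387_at (0.0379) and 213891_s_at (0.0309) were. In DU145-DR, calls became fewer without DU145 replicate 1 or 2, both among the members and over all probe sets.

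The changes of the lines were then compared with each other, as the 22Rv1 change minus the DU145 change. For SNAI2 the difference was -5.31 ± 0.32 (limma, adjusted p = 9.41e-05), for ZEB1 at 212764_at -1.76 ± 0.38 (adjusted p = 0.0303) and for VIM -1.66 ± 0.30 (adjusted p = 0.0155). These 3 were lower and 0 of 25 higher, beside 3.02% and 3.74% of all probe sets; at an unadjusted limma p under 0.05, 5 were lower and 0 higher. With the replicate block 5 were lower and 4 higher, beside 14.3% and 15.4%. For TWIST1 the difference of 0.99 ± 0.65 did not pass (limma, adjusted p = 0.502; range over alternatives 0.012 to 0.894).

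The ZEB1 call was lost without DU145 replicate 1 (limma, adjusted p = 0.0648), without 22Rv1 replicate 1 or 2 (0.114 and 0.113) and without 22Rv1-DR replicate 1 or 2 (0.112 and 0.107). The VIM call was lost without DU145 replicate 1 (0.0528), 22Rv1 replicate 2 (0.0875) and 22Rv1-DR replicate 1 or 2 (0.0687 and 0.0752), and with 12 arrays, which bring in the third pair (0.232). SNAI2 passed in all 18 alternatives, between 2.36e-05 and 0.0013.

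Between the parental lines, 4 member probe sets (TWIST1 and 3 of TCF4) were higher in 22Rv1 and 18 lower, beside 3.46% and 79.8% of all probe sets. The arrays of the lines differ over their whole range in this table, with medians of 184 to 205 in DU145 cells and 59.3 to 69.1 in 22Rv1 cells, so nothing about the members is read from this count. After quantile normalization, 7 of the 20 tested there were higher and 7 lower, beside 27% and 23.1%. On the 4 larger arrays, with like floors, DU145 exceeded 22Rv1 for VIM (13400 against 88.6), ZEB1 (290 against 12.7) and SNAI2 (167 against 12.2), and 22Rv1 exceeded DU145 for TWIST1 (568 against 6.73) and TCF4 (541 against 13.2). These are single arrays.

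Genes around the factors were counted at 1 probe set each, from 7 lists that include genes known to move in these data. Over all 9131 genes tested this way, 5.36% rose and 5.07% fell in DU145-DR (18.9% and 16.9% with the replicate block), and 2.69% and 2.21% in 22Rv1-DR (12.3% and 9.37%). The median gene difference was -0.01 in DU145-DR and 0.01 in 22Rv1-DR. The share of all genes at an unadjusted p is not given, so list counts at that cut are only a description.

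Of epithelial genes, the class that the zinc-finger members repress, 0 of 35 rose and 11 fell in DU145-DR, with a median of -0.67; the block gave 0 and 21. CDH1 read 2369 and 3641 in DU145, 38.6 and 40.2 in DU145-DR, 2937 and 3126 in 22Rv1, and 269 and 284 in 22Rv1-DR. CDH1 thus fell in both lines without overlap, by 5.74 ± 0.23 (limma, adjusted p = 1.37e-05) and 3.38 ± 0.23 on the log2 scale (limma, adjusted p = 0.000162). In DU145-DR it lay near the bottom of the array, at the 7.12 percentile, and at 7.46 on the larger array, so the size of that fall is limited by the floor. EPCAM, an epithelial adhesion molecule, fell by 2.36 ± 0.22 in DU145-DR (limma, adjusted p = 0.000513) and differed by 0.03 ± 0.22 in 22Rv1-DR, a difference between the lines that passed (limma, adjusted p = 0.00301). SPINT2, a protease inhibitor, CD24, a surface glycoprotein, KRT19, a keratin, and PPL, a desmosomal plakin, fell in DU145-DR, with log2 differences of -5.04, -4.21, -3.70 and -2.17. Without DU145 replicate 1, 7 of the 35 fell.

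In 22Rv1-DR, 2 epithelial genes rose and 4 fell (4 and 7 with the block), with a median of -0.05. KRT19 and the tight junction gene CLDN4 fell (-3.83 and -2.52), and the mucin gene MUC1 and PPL rose by 2.05 and 1.94. The splicing factor ESRP1 and the epithelial factor GRHL2 did not pass in either line. Their differences were -0.18 and -0.03 in DU145-DR and 0.00 and -1.04 in 22Rv1-DR. In DU145 ESRP1 read 58.5 and 47.8 and GRHL2 45.3 and 40.2, near the floor, so a fall there could hardly show. In the third DU145 pair ESRP1 read 50.9 and 20.4 at 219121_s_at and 92.4 and 19.7 at 225846_at, and GRHL2 23.4 and 26.5. In the third 22Rv1 pair the resistant array was lower for both. ESRP1 read 787 and 383 at 219121_s_at and 2778 and 1911 at 225846_at, and GRHL2 560 and 468. GRHL2 read 644 and 335 in 22Rv1 and 269 and 176 in 22Rv1-DR, and that difference passed with the replicate block (limma, adjusted p = 0.00409, against 0.131 without it; range over alternatives 0.00409 to 0.935). OVOL1 and OVOL2, epithelial factors that oppose ZEB1, missed the filter at their probe sets of the lists. A further OVOL2 probe set, 211778_s_at, read 226 and 214 in 22Rv1 and 135 and 107 in 22Rv1-DR. That difference of -0.79 did not pass (limma, adjusted p = 0.0781), and the third 22Rv1 pair read 220 and 125. In DU145-DR this probe set differed by -0.04 (limma, adjusted p = 0.987). OVOL1 at 229396_at, on the larger array only, went the other way in the third 22Rv1 pair, with 77.2 and 167. It read 39.9 and 38.6 in the third DU145 pair.

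Of mesenchymal genes, 14 of 41 rose and 1, CAV2, a caveolin, fell in DU145-DR, with a median of 0.14 and of 0.02 in the third pair; the block gave 19 and 4. Without DU145 replicate 1 or 2, 11 rose and 0 fell, and without DU145-DR replicate 2, 14 rose and 3 fell. FSTL1, a secreted glycoprotein, SDC2, a syndecan, SPOCK1, a matrix proteoglycan, and IGFBP3, an IGF-binding protein, rose by 4.52, 4.32, 3.86 and 3.37. TGFBI and TAGLN rose in the tested pairs (0.92 and 1.98) and differed by -1.40 and -1.01 in the third. In 22Rv1-DR 4 rose and 3 fell (6 and 6 with the block). FSTL1 was among those that rose here too, with differences of 1.109 to 1.786 over the alternatives. IGFBP3 and COL6A3, a collagen, rose by 3.45 and 3.09, and SPOCK1 and the matrix protein tenascin-C (TNC) fell (-3.12 and -2.52). SPOCK1 therefore changed in opposite directions in the lines (difference between the lines -6.99, limma adjusted p = 0.00149).

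CDH2 and FN1, the usual mesenchymal counterparts of CDH1, did not pass in either line. The N-cadherin gene CDH2 read 120 and 114 in DU145 and 103 and 112 in DU145-DR at 203441_s_at (limma, adjusted p = 0.875), and 33.8 and 40.8 in 22Rv1 and 30.7 and 29.9 in 22Rv1-DR (0.812). The fibronectin gene FN1 read 498 and 657 in DU145 and 815 and 465 in DU145-DR at 210495_x_at, and 422 and 613 in 22Rv1 and 622 and 949 in 22Rv1-DR, groups that did not pass (limma, adjusted p = 0.964 and 0.535). At this FN1 probe set the third 22Rv1 pair read 82.1 and 1342, and the third DU145 pair went the other way, with 605 and 263. These FN1 and CDH2 probe sets are not those of the lists, which missed the filter.

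Of relatives and partners of the factors, 6 of 19 rose and 0 fell in DU145-DR (9 and 3 with the block), with a median of 0.31; without DU145 replicate 1 or with 12 arrays, 1 rose, without DU145 replicate 2, 4 rose, and with only the 4 arrays compared, 0 rose. ID2 and ID3, inhibitors that bind E proteins and keep them from DNA, rose by 2.14 ± 0.46 and 1.70 ± 0.39 (limma, adjusted p = 0.0241 and 0.0303). Both calls were lost without DU145 replicate 1 (0.132 and 0.147) or replicate 2 (0.105 and 0.121), with only the 4 arrays compared and with 12 arrays (ranges 0.000218 to 0.132 and 0.000562 to 0.238). That of ID3 was lost also without 22Rv1-DR replicate 1 or 2 (0.0523) and with no filter (0.055). ID2 read 787 and 885 in DU145 and 2062 and 6747 in DU145-DR, so the resistant arrays differed more from each other than the parental ones. The third pair gave 2.15 for ID2 and 0.10 for ID3. A second ID2 probe set, 201566_x_at, differed by 2.41 in DU145-DR and did not pass (limma, adjusted p = 0.0633). ID1 and ID4 did not pass, with differences of 0.23 and 0.15, and ID1 differed by -1.64 in the third pair. BHLHE40, a helix-loop-helix repressor, the HMG-box factor SOX9, the chromatin protein HMGA2 and the Hippo effector YAP1 rose by 1.65, 1.58, 1.21 and 1.16.

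In 22Rv1-DR, HMGA2 and the Hippo effector WWTR1 rose by 1.09 and 1.24 and SOX9 fell by 3.27, of 19 tested (2 and 2 with the block). Without any 1 of the 4 22Rv1 or 22Rv1-DR arrays, 0 of the list rose and 1 fell; without DU145-DR replicate 1 or 2, 2 rose and 3 fell. SOX9 rose in one line and fell in the other, and its difference between the lines was -4.84 (limma, adjusted p = 0.000229).

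Of corepressors that the repressors recruit, 0 of 22 passed in either direction in DU145-DR, where 5.36% and 5.07% of all genes did (limma; 1 higher and 3 lower at an unadjusted limma p under 0.05; 2 and 4 with the block). Without DU145-DR replicate 2, 2 fell, with quantile normalization 3 fell, and with a pseudocount of 64, 1 rose. In 22Rv1-DR 1 rose and 0 fell (1 and 1 with the block). It was LOXL2, a lysyl oxidase that binds Snail, at probe set 202998_s_at. A second tested LOXL2 probe set, 202997_s_at, differed by -0.033 in 22Rv1-DR and -0.043 in DU145-DR and did not pass. At 202998_s_at LOXL2 read 95.7 and 56.1 in 22Rv1-DR. In 22Rv1 it read 25.8 and 13.4, near the floor, so the size of its rise depends on the floor. Its rise of 1.36 ± 0.27 (limma, adjusted p = 0.0249) was lost, and 0 remained, without DU145 replicate 1 or 2, 22Rv1 replicate 1 or 2, or 22Rv1-DR replicate 1, and likewise with a pseudocount of 64, with only the 4 arrays compared and with 12 arrays. In DU145-DR, LOXL2 read 1541 and 1520 before and 2436 and 2837 after, a difference of 0.77 (limma, adjusted p = 0.119; 0.00517 with the block; range over alternatives 0.00517 to 0.289).

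Of regulators of the factors' stability, 2 of 27 rose in DU145-DR, the kinase PRKD1 by 1.87 and the COP9 signalosome subunit COPS5 by 0.76, and 0 fell (6 and 2 with the block; 3 higher and 1 lower at an unadjusted limma p under 0.05). In 22Rv1-DR 2 rose, COPS5 by 1.06 and CSNK2A2, a subunit of casein kinase 2, by 1.01, and 0 fell (6 and 1 with the block; 4 and 1 unadjusted). Leaving out DU145 replicate 1 or 2, DU145-DR replicate 2 or any 1 of the 22Rv1 and 22Rv1-DR arrays left 1 rise in DU145-DR. In 22Rv1-DR the count was 0 without any 1 of its own line's 4 arrays, and 4 rises and 1 fall without DU145-DR replicate 1 or 2.

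The list for signals that induce the factors also holds inhibitors of these signals, so a rise in it is not a rise of inducers alone. In DU145-DR 7 of its 37 genes rose and 0 fell, with a median of 0.19 and of 0.42 in the third pair. The block gave 13 and 3. SMAD7, an inhibitory SMAD that TGF-beta induces, read 85 and 103 in DU145 and 685 and 724 in DU145-DR and rose by 2.71 ± 0.19 (limma, adjusted p = 0.000144). The Wnt effector LEF1, the receptor NOTCH2 and SKIL, a repressor of SMADs, rose by 2.67, 1.98 and 1.77. In 22Rv1-DR 4 rose, SMAD7 among them, and 2 fell (9 and 3 with the block). The SMAD7 difference there lay between 0.757 and 1.116 over the alternatives. HGF, a growth factor, and its receptor MET fell (-3.90 and -1.88), and the Wnt effector TCF7L2 and the TGF-beta receptor TGFBR2 rose by 1.67 and 1.14. Without any 1 of the 22Rv1 or 22Rv1-DR arrays the 22Rv1-DR count was 0 higher and 1 lower.

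Of 15 relatives of vimentin, 2 rose in DU145-DR and 0 fell (5 and 1 with the block). Both were neurofilament genes, NEFL, which rose by 3.34 ± 0.21, and NEFM by 1.43 ± 0.29 (limma, adjusted p = 7.45e-05 and 0.0193). Without DU145 replicate 1 or 2, 1 rose. In 22Rv1-DR 0 changed (2 higher and 2 lower at an unadjusted limma p under 0.05; 2 and 3 with the block), and 2 fell without DU145-DR replicate 1 or 2.

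**Figure D4:**
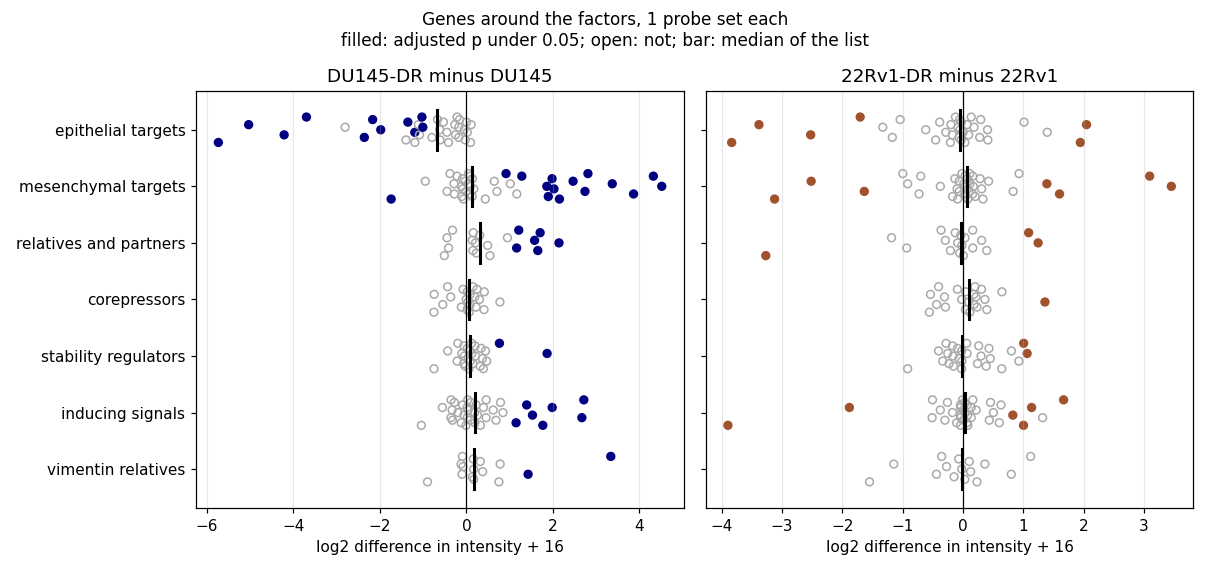
Log2 difference (intensity plus 16), resistant minus parental, of each tested gene of the 7 lists at 1 probe set; filled points have an adjusted p under 0.05, open points do not, and bars are list medians. In DU145-DR the epithelial list has a median of -0.67 and no filled point above 0.

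Probe sets with the profile most like 3 members were named by the root mean square difference of the 8 centred log2 values. For VIM they were 3 probe sets of ANXA2 (0.26, 0.35 and 0.42), TMSB4X (0.44) and TM4SF1 (0.49). For SNAI2 they were TKTL1 (0.40), NID2 (0.62), SCG5 (0.68) and 2 of NEFL (0.76 and 0.80). For ZEB1 at 212758_s_at they were CAVIN3 (0.16), IL4R (0.27), SLC35G2 (0.33), FXYD5 (0.35) and PLAUR (0.36). TKTL1 had group means of 6.10, 11.51, 5.04 and 5.10 in DU145, DU145-DR, 22Rv1 and 22Rv1-DR, close to those of SNAI2 (6.28, 11.62, 4.91 and 4.95). These are the smallest of 14323 distances over 8 arrays that share floors by line, and are a description.

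Markers of other cells were read beside these values. Of 9 fibroblast markers, 0 stood above the array median in DU145 or DU145-DR, where their summed intensity was 681 to 982 and 677 to 894. In 22Rv1 it was 279 to 292 and in 22Rv1-DR 3070 to 4235, almost all of it LUM, which read 28.8 and 41.9 in 22Rv1 and 2778 and 3984 in 22Rv1-DR, while DCN, another defining marker, missed the filter. LUM rose by 6.04 ± 0.23 (limma, adjusted p = 1.65e-05), and the third pair differed by 1.20. LUM's part in the results was not tested. Of 4 endothelial and 3 leukocyte markers, 0 stood above the median in any group. Of 5 prostate luminal markers, 3 stood above the median in 22Rv1, 4 in 22Rv1-DR and 0 in DU145 or DU145-DR.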

How the data were processed

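Per the labels, total RNA of 12 samples was hybridised to Affymetrix arrays. The authors deposited linear probe-set intensity values in a table of 8 arrays and a table of 4. The submitters' processing notes list both MAS5 and RMA without saying which made the values, and how arrays were scaled is not stated there. Unequal scaling between the lines would move levels between them, and it would not move differences within a line by the same amount. Precision is limited by the number of arrays.

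Probe sets with 1 gene symbol in the supplied annotation were used (19033 and 41032 in the 8-array and 4-array tables), and the rest were set aside: 1043 and 1801 with several symbols, 2108 and 11721 without any, and 31 and 59 of Y-linked or X-inactivation genes. There were 0 columns of no known sample. Values were taken as log2(intensity + 16). Probe sets whose mean passed the 40th percentile of all values (log2 6.59) in at least 1 group were tested in R 4.3.3 by lmFit and eBayes of limma 3.58.1 (4 residual and 4.44 prior degrees of freedom), with 1 term a group and no block, two-sided, adjusted by Benjamini-Hochberg over all probe sets tested. The script was tested on simulated data. The third pair was not tested, and levels were not compared between the tables.

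Replicate numbers were checked for pairing: deviations from group means correlated at 0.71 in DU145 and 0.792 in 22Rv1 between parental and resistant arrays of a line, and at 0.0812 to 0.115 across lines. The labels state no shared day or batch, so this pairing comes from the data. A block term per replicate number within a line was an alternative, and so were other normalizations, pseudocounts, filters, sets of arrays and summaries per gene.

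The members and the lists were chosen with earlier results of these data known, and counts over them are no independent evidence. Named genes are all members, 17 genes fixed by name whatever their result, and up to 4 further called genes of each list and comparison with the largest difference; likeness was measured for the 3 members whose brightest tested probe set had the widest range of group means. Other genes named were chosen after their values were seen. Lists took 1 probe set a gene, preferring names without a mark for cross-hybridization. Promoter windows are those of RefSeq for GRCh38.p14.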

Additional observations from a re-analysis of the deposited data

Results flagged for a closer look

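For 3 member probe sets the change with resistance differed between the lines in the test of that difference (limma, 22Rv1 change minus DU145 change on the log2 scale). For SNAI2 it was -5.313 (adjusted p = 9.41e-05), from 5.35 in DU145-DR and 0.03 in 22Rv1-DR. For ZEB1 at 212764_at it was -1.763 (adjusted p = 0.0303; range over alternatives 0.00204 to 0.114), from 1.78 and 0.02. For VIM it was -1.664 (adjusted p = 0.0155; range over alternatives 0.00411 to 0.232), from 0.64 and -1.02. The third pairs, with no test, gave -2.78, -2.47 and -0.83.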

How the results depend on the processing

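Alternatives were counted for the single probe-set and gene values that passed in at least 1 setting. Of these alternatives, 1335 kept their direction and their side of the threshold, 125 became weaker, 62 stronger and 2 reversed. Values that passed in no setting are not in this count, so it does not give the number of reversals among them. Of 25 member probe sets (20 with quantile normalization, 21 with the median shift, 29 with no filter, 13 with the 60th percentile filter), those changed numbered 4 in DU145-DR, 12 with the replicate block, 1 with only the 4 arrays compared and 2 to 5 leaving out 1 array. In 22Rv1-DR they numbered 1, 5 with the replicate block, 2 with quantile normalization or the shift to 1 median, 0 with a pseudocount of 64, 3 with only the 4 arrays compared, 0 with 12 arrays and 0 to 2 leaving out 1 array. Those whose change differed between the lines numbered 3, 9 with the replicate block, 5 with no filter and 1 to 4 leaving out 1 array. Between the parental lines they numbered 22, 14 with quantile normalization, 13 with the shift to 1 median and 13 with the 60th percentile filter, the last with fewer probe sets tested. Without 22Rv1-DR replicate 1, TCF4 at 212382_at differed by -0.088 in 22Rv1-DR (range leaving out 1 array -0.088 to 1.55). Without DU145-DR replicate 2, TCF7L2 at 212761_at differed by -0.06 in DU145-DR (-0.06 to 0.847). Of all probe sets, 683 rose and 672 fell in DU145-DR (2584 and 2318 with the block, 1001 and 1050 with quantile normalization, 138 and 155 with only the 4 arrays, 230 and 322 with 12 arrays). In 22Rv1-DR 325 rose and 278 fell (1635 and 1253, 483 and 431, 754 and 572, 128 and 138 under the same settings). Leaving out 1 array moved the counts over all probe sets as well. The cause of these shifts was not tested. Values near the floor limit SNAI1, SNAI2, ZEB2 and ZEB1 at 212764_at and 210875_s_at in 22Rv1 cells, and LOXL2 at 202998_s_at in parental 22Rv1. They also limit ZEB2, SNAI2, ZEB1 at 210875_s_at and TCF4 at 212386_at in DU145.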
